A study of Homo sapiens with 2 samples.

Results

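The 10 genes described here are transcription factors and effectors of the integrated stress response, the ATF4-CHOP branch of cellular stress signalling: ATF4, DDIT3, ATF3, CHAC1, DDIT4, TRIB3, SESN2, STC2, PPP1R15A and CEBPB. They were selected by name with their ratio between the libraries already known, so that ratio is given as a description, with no test. All 10 were found among the 19989 genes measured, all 10 averaged 1 CPM (counts per 1000000) or more over the libraries, as did 65.3% of genes, and 8 averaged 10 CPM or more. The polyadenylated RNA came from hNCI-H716 cells, an established line from a cecal colorectal adenocarcinoma that is used as a model of the human L-cell, the intestinal cell that secretes glucagon-like peptide-1, and was read by RNA-seq. Both cultures were first grown in suspension in RPMI, plated on Matrigel, and then kept for 48 h in DMEM with serum and penicillin/streptomycin, with glucose at 5.5 mM (low glucose) or 25 mM (high glucose). Each concentration is represented by 1 library. Glucose therefore cannot be told apart from any other difference between the 2 cultures, and no difference has a replicate check.

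The integrated stress response begins with kinases that phosphorylate the initiation factor eIF2α when amino acids, haem, protein folding in the endoplasmic reticulum (ER) or viral RNA are sensed. General translation then slows, while the mRNA of ATF4 is translated more efficiently because of short open reading frames upstream of its own. ATF4 is a basic leucine zipper (bZIP) factor that pairs with C/EBP proteins and activates genes of amino acid supply, the further factors DDIT3 (CHOP) and ATF3, and brakes on growth and on the response itself. In secretory cells, this pathway is best known from the load that hormone synthesis places on the ER. The measurements below are of mRNA in bulk culture, in which fewer cells that express a gene and less mRNA per cell cannot be told apart, and the amount of ATF4 protein was not measured.

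The promoters of the 10 genes were searched first, because ATF4 and its partners bind short DNA elements. RefSeq sequence on GRCh38.p14 gave 16 windows of 250 bases before an annotated start for the 10 genes, 5 of which have several starts, and 35116 windows in all. A gene was counted when any of its windows matched, and the shares of all windows are of single windows. ATF3 and CEBPB each matched at only 1 of their 2 starts. The C/EBP-ATF response element TGATGNAA, read on both strands, occurred in 3.14% of all windows and in those of ATF3 and CHAC1. The cyclic AMP response element TGACGTCA, which reads the same on both strands, occurred in 1.65% of all windows and in that of PPP1R15A. The sequences around these matches are printed because they place the elements before annotated starts of genes whose levels follow, and capitals mark the matched element. The ATF3 sequence is chr1:212565157-212565333 on the plus strand, 250 to 74 bases before a start. The PPP1R15A sequence is chr19:48872171-48872391 on the plus strand, 250 to 30 bases before the start. The CHAC1 site, chr15:40953251-40953280 on the plus strand, holds the element in the minus orientation 209 bases before the start. It lies inside the annotated CHAC1 gene, which begins at 40952962, and within an exon of another annotated transcript, so 30 bases are shown.
ATF3: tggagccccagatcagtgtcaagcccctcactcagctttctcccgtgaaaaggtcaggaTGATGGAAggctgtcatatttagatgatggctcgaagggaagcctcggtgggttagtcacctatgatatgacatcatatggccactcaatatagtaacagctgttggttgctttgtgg
PPP1R15A: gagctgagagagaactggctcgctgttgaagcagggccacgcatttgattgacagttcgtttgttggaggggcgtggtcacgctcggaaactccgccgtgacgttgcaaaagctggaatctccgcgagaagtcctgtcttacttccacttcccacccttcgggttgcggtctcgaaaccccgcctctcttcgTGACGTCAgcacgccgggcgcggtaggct
CHAC1: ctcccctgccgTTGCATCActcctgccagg

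The shorter letters TGACG, which are part of TGACGTCA, occurred in 21.2% of all windows and in those of ATF4, CEBPB and PPP1R15A. The CCAAT box, bound by the general factor NF-Y, occurred in 32.0% of all windows and in those of 7 of the 10 genes. DDIT3 held 2 CCAAT letters in opposite orientations on chromosome 12, printed along the gene on the minus strand, of which the first starts 100 bases and the second 76 bases before a start. They are shown as 27-base sites with the matched letters in capitals, at chr12:57520599-57520625 and chr12:57520575-57520601.
DDIT3, plus orientation: acggggcggggCCAATgccggcgtgcc
DDIT3, minus orientation: gccactttctgATTGGtaggttttggg

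The same genes held each element when the 50 bases after the start were included. A match is a string of letters and not a measured binding site. For TRIB3, none of these letters was found in its windows, and this says only that the letters are not there.

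Depth was similar in the libraries. Steps between the low values of the deposited table give totals of 21757296 estimated counts for low and 19456318 for high glucose, so that 1 count is worth 0.0460 and 0.0514 CPM. The limit that a count of 0 allows is 0.138 CPM for low and 0.154 CPM for high glucose (3 counts). Intervals on levels are 95% Wilson intervals, those on log2 ratios (always high over low glucose) are exact binomial ones, also at 95%, and neither covers more than counting error. Several, though not all, of the L-cell and epithelial markers looked for had values. GCG, which encodes proglucagon, was at 1954 CPM in low and 1808 CPM in high glucose. The prohormone convertase gene PCSK1 was at 555 and 600.3 CPM and the keratin gene KRT8 at 270.0 and 291 CPM. The intestinal factor gene CDX2 was at 30.5 and 38.2 CPM (log2 ratio 0.33, 0.17 to 0.48). VIL1, a gene of the brush border, was at 11.7 and 17.8 CPM (log2 ratio 0.61, 0.38 to 0.85). KRT18 was at 182 and 212 CPM (log2 ratio 0.22) and CHGA, an endocrine granule gene, at 704 and 653 CPM (-0.11). The ratio intervals of CDX2, VIL1, KRT18, KRT8 (0.11) and PCSK1 (0.11) lay wholly above 0 and those of GCG (-0.11) and CHGA wholly below 0. The part of these differences in the levels of the 10 genes was not tested. The epithelial adhesion gene EPCAM was at only 3.37 and 3.50 CPM, and NEUROD1 and PYY were not analysed here.

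ATF4, the factor at the head of the pathway, had 382 CPM in low glucose (interval 374 to 390, 8291 estimated counts) against 253 CPM in high glucose (246 to 260, 4933 counts). The level was 1.51-fold higher in low glucose, a log2 ratio of -0.59 (interval -0.64 to -0.54). ATF4 (ENSG00000128272.14) lies on chromosome 22 of GRCh38, 39519695 to 39522685, on the plus strand. It was the most abundant of the 10 transcripts, and its interval is the narrowest. ATF4 has processed pseudogenes with which it could share reads, and the only 1 of 4 with a value, ATF4P3, had 0.0591 and 0.0645 CPM, below what a count of 0 allows.

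DDIT3 encodes CHOP, a C/EBP-family factor induced through ATF4 and known for promoting cell death under lasting ER stress. It was at 63.2 CPM in low glucose (60.0 to 66.7, 1373 counts) and 21.9 CPM in high glucose (19.9 to 24.1, 427 counts). The log2 ratio was -1.53 (-1.69 to -1.37), and the level was 65.4% lower in the high glucose library. Among the 9345 genes averaging at least 10 CPM, DDIT3 had the lowest ratio of all, which was known when the gene was chosen. DDIT3 (ENSG00000175197.12) lies on chromosome 12, 57516588 to 57521737, on the minus strand. Its exons overlap those of MARS, the methionyl-tRNA synthetase gene of the opposite strand, by 355 bases, or 27.2% of the DDIT3 exons, and those of MBD6, also on the opposite strand, by 58 bases. AC022506.1, a protein-coding gene of the same strand, overlaps 105 bases, or 8.03% of the DDIT3 exons, and its level was not analysed here. The library kit does not mark strand, so reads from these stretches cannot be assigned by strand. MARS was at 187 and 175 CPM (log2 ratio -0.09) and MBD6 at 73.0 and 67.1 CPM (log2 ratio -0.12).

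ATF3 encodes a bZIP factor that usually represses transcription and is an early responder to many stresses. Per kb of exon it was the least abundant of the 10. It stood at 5.44 CPM in low glucose (4.54 to 6.50, 118 counts) and 3.66 CPM in high glucose (2.89 to 4.60, 71.0 counts). Its log2 ratio of -0.57 had the widest interval (-1.02 to -0.14). It was the only 1 of the 10 genes whose 2 level intervals overlapped, although its ratio interval lay below 0. The ATF3 gene (ENSG00000162772.16) spans 55.4 kb of chromosome 1, 212565334 to 212620777, on the plus strand.

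CEBPB encodes a C/EBP factor that can dimerise with ATF4 and with CHOP. It was at 28.0 CPM in low glucose (25.9 to 30.3, 608 counts) and 14.3 CPM in high glucose (12.7 to 16.1, 279 counts), a log2 ratio of -0.97 (-1.18 to -0.76). CEBPB (ENSG00000172216.5) is a single-exon gene at 50190734 to 50192689 of chromosome 20, on the plus strand. The antisense gene CEBPB-AS1 overlaps 11.8% of its exon, and without strand its reads cannot be told apart from those of CEBPB.

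**Figure D1:**
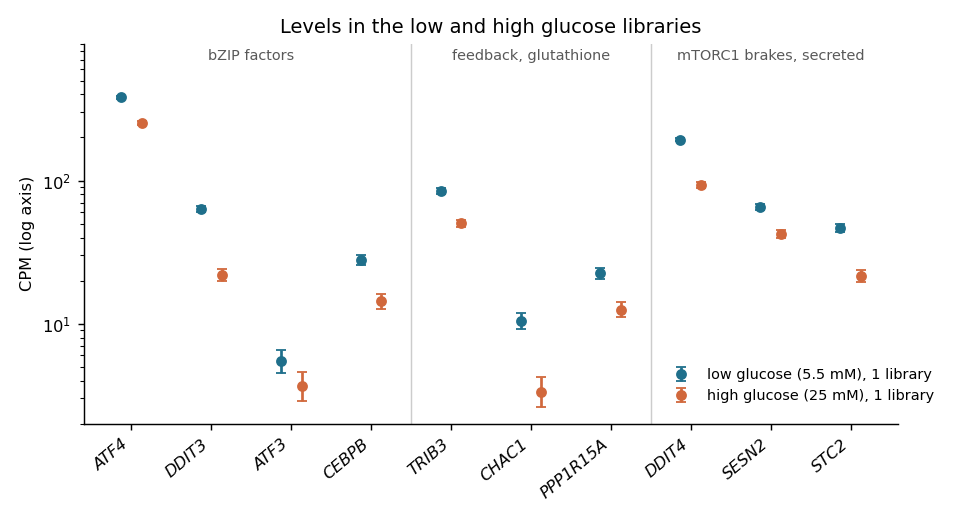
Level of each of the 10 genes in CPM, on a log axis, in the low glucose library (blue) and the high glucose library (orange), with 95% Wilson intervals from counting error. Every gene was lower in the high glucose library, and the intervals overlap only for ATF3, at 5.44 and 3.66 CPM.

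The next 3 genes act on the response itself or on the thiol pool. TRIB3 encodes a pseudokinase that binds ATF4 and CHOP and limits their activity. It was at 84.4 CPM in low glucose (80.6 to 88.3, 1833 counts) and 50.2 CPM in high glucose (47.1 to 53.4, 978 counts), a log2 ratio of -0.75 (-0.86 to -0.64). TRIB3 (ENSG00000101255.10) lies on chromosome 20, 362835 to 397559, on the plus strand.

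PPP1R15A encodes GADD34, the inducible subunit that brings protein phosphatase 1 to eIF2α and so ends the signal. It was at 22.6 CPM in low glucose (20.6 to 24.6, 490 counts) and 12.5 CPM in high glucose (11.0 to 14.2, 244 counts), a log2 ratio of -0.85 (-1.08 to -0.62). Its intervals did not overlap, and its level was 44.5% lower in high glucose. PPP1R15A (ENSG00000087074.7) lies on chromosome 19, 48872392 to 48876057, on the plus strand, directly after the TGACGTCA-bearing stretch printed above.

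CHAC1 encodes a γ-glutamylcyclotransferase that degrades glutathione, and is among the genes most specific to ATF4 activity. It was at 10.5 CPM in low glucose (9.18 to 11.9, 227 counts) and 3.35 CPM in high glucose (2.62 to 4.25, 65.0 counts). Its log2 ratio of -1.64 (-2.07 to -1.24) was the lowest of the 10 genes, a level 3.12-fold higher in low glucose. This interval overlaps that of DDIT3, so the order of these genes is not resolved by their counts. CHAC1 (ENSG00000128965.12) lies on chromosome 15, 40952962 to 40956519, on the plus strand.

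DDIT4 and SESN2 encode brakes on mTORC1, the kinase complex that couples nutrients to growth. DDIT4 (REDD1), which acts through the TSC complex, was at 193 CPM in low glucose (188 to 199, 4202 counts) and 92.9 CPM in high glucose (88.8 to 97.3, 1811 counts). Its log2 ratio was -1.06 (-1.14 to -0.98). DDIT4 is also known as a target of hypoxia and of glucocorticoids. DDIT4 (ENSG00000168209.4) lies on chromosome 10, 72273920 to 72276036, on the plus strand, and the antisense gene DDIT4-AS1 overlaps 41.2% of its exons, whose reads cannot be assigned by strand.

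SESN2 (sestrin 2), a leucine sensor that restrains mTORC1 through GATOR2, was at 65.2 CPM in low glucose (61.9 to 68.7, 1416 counts) and 42.5 CPM in high glucose (39.6 to 45.4, 827 counts). The log2 ratio was -0.62 (-0.74 to -0.49), 1.54-fold higher in low glucose. SESN2 (ENSG00000130766.4) lies on chromosome 1, 28259527 to 28282491, on the plus strand.

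STC2 encodes stanniocalcin 2, a secreted glycoprotein and the only secreted product among the 10. It was at 46.5 CPM in low glucose (43.7 to 49.4, 1009 counts) and 21.6 CPM in high glucose (19.6 to 23.7, 420 counts), a log2 ratio of -1.11 (-1.28 to -0.94). STC2 (ENSG00000113739.10) lies on chromosome 5, 173314713 to 173329503, on the minus strand.

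**Figure D2:**
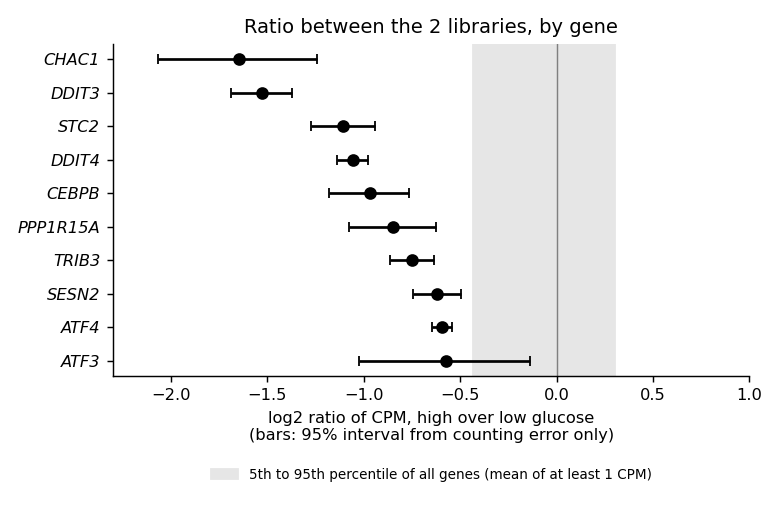
Log2 ratio of CPM, high over low glucose, for each of the 10 genes (points) with exact binomial 95% intervals from counting error (bars), over a grey band from the 5th to the 95th percentile of all genes averaging at least 1 CPM. All 10 intervals lie below 0, from CHAC1 at -1.64 to ATF3 at -0.57, and all 10 points lie below the lower edge of the band at -0.44.

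The 10 ratios had a median of -0.91, and the median of all 13052 genes averaging at least 1 CPM was -0.0064. Of those 13052 genes, 51.4% had a ratio below 0, 3.72% had a ratio of -0.5 or lower and 0.621% had a ratio of -1 or lower. These shares depend on the filter: 486 genes were at -0.5 or lower and 81 at -1 or lower, against 55 and 5 of the 9345 genes averaging at least 10 CPM and 2989 and 1719 of all 19989 genes. All 10 genes were below 0 and at -0.5 or lower, and 4 were at -1 or lower, namely CHAC1, DDIT3, STC2 and DDIT4. The counting interval lay wholly below 0 for 15.9% of all genes and wholly above 0 for 15.8%. It lay wholly below 0 for all 10 of these genes. Because the genes were picked with this ratio known, these counts describe the choice and are not evidence of a response. In the order of ratios, DDIT3 and STC2 were the only neighbours whose intervals did not overlap.

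The summed level of the 10 genes was 901 CPM at 5.5 mM glucose against 516 CPM at 25 mM, 1.75-fold higher in low glucose. Of the difference of 385 CPM, ATF4 made up 129 CPM and DDIT4 100.5 CPM. ATF4 held 42.4% of the sum in low glucose and 49.1% in high glucose.

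**Figure D3:**
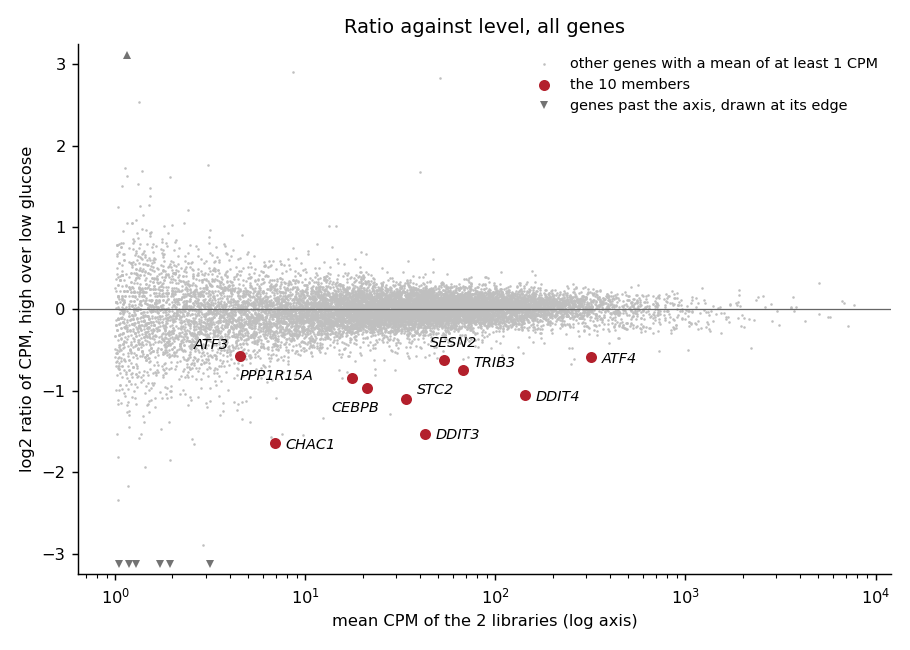
Log2 ratio of CPM, high over low glucose, against the mean CPM of the 2 libraries (log axis) for all 13052 genes averaging at least 1 CPM (grey) and the 10 genes described (red); 7 genes past a log2 ratio of 3 in size are drawn as triangles at the edge. The spread of all genes narrows as the level increases, and the 10 genes lie in its lower part or below it, from ATF3 at a mean of 4.55 CPM to ATF4 at 317 CPM.

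Of the 13052 genes, 351 had a ratio as low as that of ATF3, the highest of the 10, and 106 had a ratio as low as the median of the 10. Of the 20 lowest ratios among genes averaging at least 10 CPM, 6 belonged to the genes described: DDIT3, STC2, DDIT4, CEBPB, PPP1R15A and TRIB3. SESN2 came next, in place 21, and ATF4 in place 26. As the genes were picked with this ratio known, these places also describe the choice. ATF3 and CHAC1, with means of 4.55 and 6.90 CPM, were too low to enter this order. The other 14 places included HKDC1, a gene of the hexokinase family, at 17.7 and 7.04 CPM in low and high glucose, the angiogenic factor gene VEGFA at 29.7 and 16.9 CPM, the amino acid transporter gene SLC7A5 at 308 and 193 CPM, and the stress cytokine gene GDF15 at 27.9 and 18.0 CPM. KLHL24 held place 20, at 31.5 and 20.5 CPM. A clone-based gene, given by its values alone, was in place 10 at 20.8 and 12.2 CPM (log2 ratio -0.77). The others were RF02164, NEAT1, NPIPA1, AMDHD2, GIGYF1, FRK, RENBP and AC138969.4.

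Levels were compared between the 10 genes after division by exon length, as CPM per kb of all annotated exons (mean of the libraries). ATF4 stood highest at 126 CPM per kb, above 97.4% of the genes matched to the annotation. DDIT4 followed at 69.6, DDIT3 at 32.6, TRIB3 at 19.6, SESN2 at 15.6 and CEBPB at 10.8 CPM per kb. PPP1R15A at 5.67 and STC2 at 5.55 CPM per kb were close, and their intervals overlapped in both libraries, with STC2 above in low glucose and PPP1R15A above in high glucose. CHAC1 at 3.35 and ATF3 at 1.13 CPM per kb came last, and ATF3 stood above only 15.2% of them. By the length of the longest transcript, ATF3 was at 2.16 CPM per kb, above 19.9% of them, and still last. In low glucose, DDIT3 (48.4 CPM per kb, 45.9 to 51.0) and TRIB3 (24.6, 23.5 to 25.7) were well apart. In high glucose, their intervals overlapped, at 16.8 (15.2 to 18.4) and 14.6 (13.7 to 15.6) CPM per kb.

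Features of the transcripts were compared next. Against 11278 protein-coding genes averaging at least 1 CPM, the 10 genes had a median span of 4.41 kb against 33.8 kb, and 8 were below the median, with ATF3 (55.4 kb) and TRIB3 (34.7 kb) above it. The principal transcript had a median of 3.5 exons against 9, and only SESN2, with 10 exons, was above the median. The GC content of that transcript was above the median of all genes (48.4%) for all 10, with a median of 58.5%. The ratio itself varied with GC content over all genes, from a median of 0.03 in the tenth of genes with the lowest GC content to -0.09 in the tenth with the highest. The GC content of the 10 genes is therefore not independent of a choice made with the ratio known. With the trend over GC content and length taken out, the ratios ran from -1.57 for CHAC1 and -1.46 for DDIT3 to -0.58 for ATF4 and -0.57 for SESN2.

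The part of the transcript before the coding sequence (the leader) was examined because upstream start codons are the means by which ATF4 escapes the slowing of translation. The annotated ATF4 leader of 882 bases held 7 ATG triplets. That of STC2 was longer, at 1310 bases with 11 ATG, while DDIT3 and TRIB3 held 3 each, PPP1R15A 2, and ATF3 and SESN2 1 each. CHAC1, DDIT4 and CEBPB held none. In all, 7 of the 10 leaders held an ATG, against 51.8% of all genes. The mRNA-decay letters ATTTA occurred in the 3′ untranslated part of 6 of the 10, against 70.0% of all genes. There were 13 in STC2, 3 in ATF3 and 2 each in the short tails of DDIT3 and PPP1R15A.

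The machinery upstream of ATF4 was measured at nearly equal mRNA levels in both libraries. The 7 genes of the eIF2α kinases and their activators had a median ratio of 0.07, and none reached -0.5. EIF2AK3 (PERK, the ER sensor) was at 59.1 CPM in low and 56.4 CPM in high glucose, and EIF2AK4 (GCN2, the amino acid sensor) at 55.6 and 60.6 CPM. OMA1, the mitochondrial protease that starts the signal to the kinase HRI through DELE1, was at 17.2 and 19.6 CPM. None of the 7 had an interval wholly below 0, and those of EIF2AK1 (0.07) and EIF2AK4 (0.12) lay above 0. These kinases are controlled through their activity, which mRNA levels do not report.

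The 8 subunits of eIF2 and its exchange factor eIF2B had a median of 0.10, from EIF2S2 at -0.08 to EIF2B4 at 0.22. Of their intervals, 4 lay wholly above 0 (15.8% of all genes) and 1 below (15.9% of all genes). Among the 4 other subunits of the eIF2α phosphatases, PPP1R15B, the constitutive counterpart of PPP1R15A, was at 93.8 and 78.6 CPM (log2 ratio -0.25). The catalytic subunit genes PPP1CA and PPP1CB were at -0.08 and -0.09 and PPP1CC at 0.26.

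Beyond the 10 genes, 20 of 23 listed targets of ATF4 or CHOP averaged at least 1 CPM, and their median ratio was -0.40. Of these 20, 19 were below 0, 7 were at -0.5 or lower and 3 at -1 or lower, and 14 intervals lay wholly below 0 and none wholly above. Over all genes averaging at least 1 CPM, the shares past these ratios were 51.4%, 3.72% and 0.621%. Intervals of all genes lay wholly below 0 for 15.9% and wholly above for 15.8%. The 3 lowest, all with means under 10 CPM, were NUPR1, a stress-induced chromatin protein, at 14.4 and 4.94 CPM (log2 ratio -1.55), FAM129A at 5.08 and 2.06 CPM (-1.30) and ADM2, a hormone of the calcitonin family, at 9.49 and 4.48 CPM (-1.08). Those at the higher end were ERO1A, an ER oxidase, at -0.02, XPOT, a tRNA exporter, at -0.02, MAP1LC3B, an autophagy protein, at -0.03, and BCL2L11, the pro-death protein BIM, at 0.07. BCL2L11, a known CHOP target, was at 25.1 and 26.3 CPM, with DDIT3 itself at 63.2 and 21.9 CPM. VLDLR was not analysed here. This list was drawn up with results of these libraries known, so its counts are not independent support.

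Of 19 genes of amino acid synthesis and transport, the best-known output of ATF4, 16 were below 0 and the median was -0.21. At -0.5 or lower stood 3, and 15 intervals lay wholly below 0 and 1 wholly above. Over all genes, 51.4% were below 0 and 3.72% at -0.5 or lower, with 15.9% of intervals wholly below 0. This list was also drawn up with results of these libraries known. Of the genes averaging at least 10 CPM, the lowest 3 were transporter genes: SLC7A5, the light chain of the large neutral amino acid transporter, at -0.67, SLC7A11, the cystine transporter that supplies glutathione synthesis, at 81.3 and 53.1 CPM (-0.61), and their shared heavy chain SLC3A2 at 153 and 110.3 CPM (-0.47). The glycine transporter gene SLC6A9 was the only 1 at -1 or lower, at 5.81 and 2.63 CPM (-1.14). ASNS, asparagine synthetase, was at 96.9 and 73.4 CPM (-0.40). Other transporter genes had ratios nearer 0, with SLC1A5 at -0.14, SLC7A1 at -0.13 and SLC38A2 at -0.07. At the other end, PYCR1 was at -0.02, SLC1A4 at 0.07 and ALDH18A1, which like PYCR1 serves proline synthesis, at 77.6 and 89.6 CPM (0.21). The serine synthesis genes were spread between these ends, with PSPH at -0.37, PHGDH at -0.28 and PSAT1 at -0.10.

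The genes of the other ER stress arms had ratios on both sides of 0. The 22 ER chaperone and ER-associated degradation (ERAD) genes had a median of -0.01, with 11 below 0 (51.4% of all genes). None was at -0.5 or lower (3.72% of all genes). HSPA5, the chaperone BiP and the usual marker of the unfolded protein response, was at 1031 CPM in low and 1143 CPM in high glucose (log2 ratio 0.15). DNAJC3, which encodes P58IPK, an inhibitor of PERK, was at 157 and 185 CPM (0.24). HERPUD1, an ERAD component that ATF4 is also known to activate, was lowest at 168 and 133 CPM (-0.34). XBP1, the factor spliced by IRE1, was at 197 and 204 CPM (0.04). Its spliced form was not measured.

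**Figure D4:**
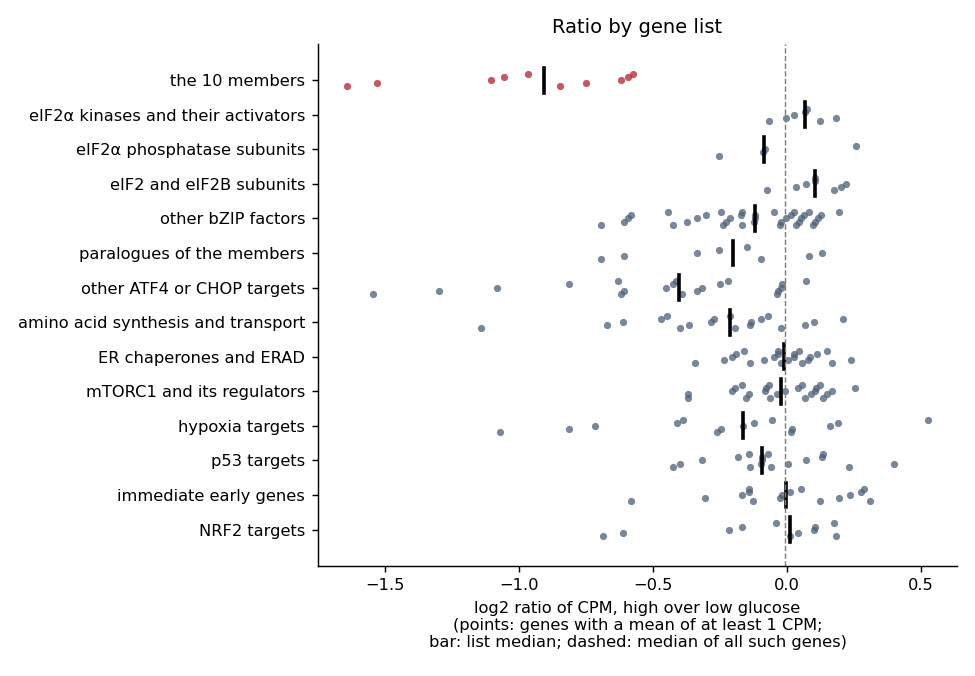
Log2 ratio of CPM, high over low glucose, for the genes averaging at least 1 CPM in each gene list (points), with the list median (bar) and the median of all such genes (dashed line). Some genes belong to several lists. The bars of the 10 genes (-0.91), of other ATF4 or CHOP targets (-0.40) and of amino acid genes (-0.21) lie left of the line, as do those of paralogues (-0.20), hypoxia targets (-0.16), other bZIP factors (-0.12), p53 targets (-0.09), phosphatase subunits (-0.09), mTORC1 genes (-0.02) and ER genes (-0.01), while those of eIF2 and eIF2B (0.10) and of the eIF2α kinases (0.07) lie right of it.

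Since DDIT4 and SESN2 act on mTORC1, genes of mTORC1 and its regulators were read as well. The 24 averaging at least 1 CPM had a median of -0.02. Of these, 13 were below 0 (51.4% of all genes) and none was at -0.5 or lower (3.72% of all genes). The Rag GTPase gene RRAGC was at 83.8 and 64.9 CPM (-0.37) and TSC2 at 99.7 and 86.4 CPM (-0.21), while TBC1D7, the small subunit of the TSC complex, was at 29.2 and 34.8 CPM (0.25). MTOR was at 88.9 and 91.4 CPM (0.04).

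Several of the 10 genes also answer to other stimuli, so genes of those pathways were read alongside. Of 15 hypoxia targets averaging at least 1 CPM, 10 were below 0, 3 were at -0.5 or lower and 7 had an interval wholly below 0 (2 wholly above), and the median was -0.16. Over all genes averaging at least 1 CPM, these shares were 51.4%, 3.72% and 15.9% (15.8% wholly above). VEGFA, which ATF4 and hypoxia both induce, was at -0.81 while ADM at -1.07 and ANKRD37 at -0.72 both had means under 10 CPM, whereas ANGPTL4, also under 10 CPM, was at 0.53 and EGLN3 at 0.19. The glucose transporter gene SLC2A1 was at 128 and 118 CPM (-0.12). The 17 p53 targets, a group to which SESN2 also belongs, had a median of -0.09, with none at -0.5 or lower. CDKN1A (p21), with 4.85 and 4.27 CPM, was low in both libraries, MDM2 was at 0.07, GADD45A at -0.40 and AEN at 0.40. The part of these pathways in the levels of the 10 genes was not tested.

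The 16 immediate early genes, which share with ATF3 a rapid induction by many stimuli, had a median of -0.0051. Only FOS, named after its value was seen, was at -0.5 or lower, at 6.55 and 4.37 CPM (-0.58), while IER2 was at 0.29, IER3 at 0.31 and EGR1 at -0.03. The 11 NRF2 targets, the oxidative stress genes, had a median of 0.01. SLC7A11 and OSGIN1 (-0.69) were the only 2 at -0.5 or lower, NQO1 was at 758 and 814 CPM (0.10) and GCLM, a glutathione synthesis gene, at 0.18.

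The other bZIP factors, some of which can pair with ATF4, CHOP, ATF3 or C/EBPβ, were then compared. Of 35 averaging at least 1 CPM, 23 were below 0 and 16 had an interval wholly below 0, with none wholly above, and the median was -0.12. Over all genes averaging at least 1 CPM, 51.4% were below 0. Their intervals lay wholly below 0 for 15.9% and wholly above for 15.8%. At -0.5 or lower stood 4 of the 35, namely CEBPD, ATF5, NFIL3 and FOS, against 3.72% of all genes. ATF5, the closest relative of ATF4 and itself under the same form of translational control, was at 313 and 205 CPM. CEBPG, a preferred partner of ATF4, was at 40.7 and 32.2 CPM (-0.34). The factors of the other ER stress arms were ATF6 at 73.7 and 72.6 CPM and ATF6B at 60.1 and 53.5 CPM. JUN, a partner of ATF3, was at 43.1 and 38.4 CPM (-0.17), and the largest ratios in the list averaging at least 10 CPM were those of CREM (0.13) and MAFK (0.12). CEBPE, CREB5 and CREB3L3 were not analysed here.

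The 10 genes were also set beside their paralogues, of which 8 averaged at least 1 CPM. Of the 14 listed paralogues, 8 are also in another list, as are 11 of the 44 listed bZIP factors. The same holds for 6 of the 23 listed targets of ATF4 or CHOP, so these lists are not separate observations. The ratio of ATF5, -0.61 (-0.67 to -0.55), overlapped that of ATF4, and that of CEBPD, -0.69 (-1.21 to -0.19), overlapped that of CEBPB. The other paralogues had ratios nearer 0, with intervals apart from those of the gene they resemble. TRIB1, at 4456 and 4016 CPM, was among the most abundant transcripts of the cells, with a ratio of -0.15 (-0.16 to -0.14) against -0.75 for TRIB3. CHAC2, the constitutive glutathione-degrading enzyme, was at 19.3 and 20.4 CPM (0.08, -0.12 to 0.28), against -1.64 for CHAC1. SESN1, known as a p53 target, was at 18.9 and 20.7 CPM (0.13, -0.07 to 0.33), and SESN3, known as a FOXO target, was at 84.6 and 79.0 CPM (-0.10, -0.20 to 0.000145). Both stood above the -0.62 of SESN2. PPP1R15B, at -0.25 (-0.35 to -0.16), stood above the -0.85 of PPP1R15A. STC1 and DDIT4L were not analysed here.

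**Figure D5:**
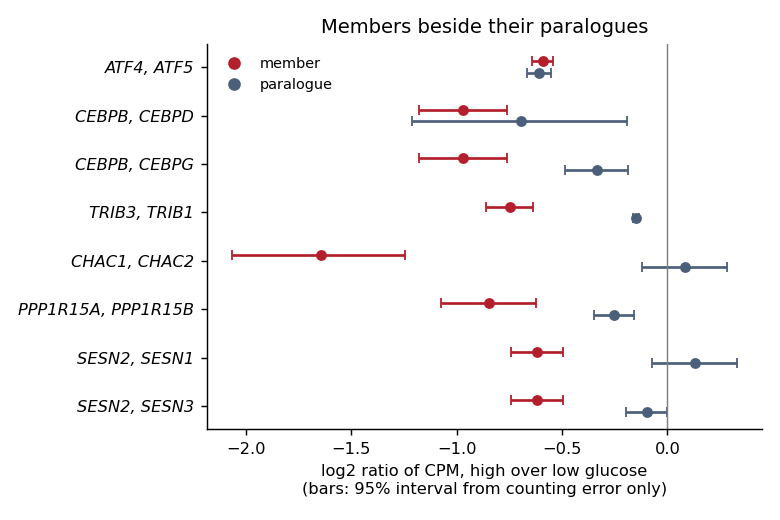
Log2 ratio of CPM, high over low glucose, for a gene of the stress response (red) and a paralogue (blue) on each line, with exact binomial 95% intervals from counting error. Intervals overlap for ATF4 with ATF5 and for CEBPB with CEBPD, and are apart for the other 6 pairs, as for TRIB3 (-0.75) and TRIB1 (-0.15).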

How the data were processed

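RNA from 2 hNCI-H716 cultures was sequenced. The study used a TruSeq v2 kit with polyA selection. Reads were trimmed with Trim Galore 0.5.0, as the submitters' processing notes name it, aligned to GRCh38 with STAR 2.6.0 and quantified with RSEM 1.3.1, genes with almost no counts were removed, and the authors normalized by TMM in edgeR. The authors deposited CPM and log2 CPM, plus their mean over libraries and comparison of libraries, which were not used. The deposited CPM add to 1000000 in each library once a small prior is taken off, so they carry no TMM factor.

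TMM factors (0.998 for low and 1.002 for high glucose) were computed here from counts recovered from the steps of the CPM (Python 3.11.15; numpy 2.4.6; pandas 2.3.3; scipy 1.17.1; matplotlib 3.10.9). Under 3 CPM, only 74.3% and 74.8% of values were whole to within 0.05 counts, since RSEM divides reads. No count model was fitted to test differences. The Wilson and binomial intervals treat the estimated counts as if they were counted reads. No p-value was computed, as a concentration has 1 library. The calculations were tested on simulated libraries.

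Transcript features were read from GENCODE v29, a release other than that of the study but on the same assembly, matched by symbol for 88.9% of genes averaging at least 1 CPM and for all 10 described. Promoters came from RefSeq on GRCh38.p14. The 10 genes, the 13 gene lists and the alternatives were chosen with earlier results of these data known. Named were the 10 genes, from each list up to 4 genes at each end averaging at least 10 CPM, partners, paralogues and overlapping neighbours, and the 20 lowest ratios, of which 1 is given without its symbol. Any other gene was named after its values were seen. Alternatives were scaling, pseudocount, prior, filter, gene length, promoter window, leaving out each gene and, chosen after seeing the data, removal of the GC and length trend. Protein identity of paralogues was not computed.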

Additional observations from a re-analysis of the deposited data

How the results depend on the processing

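Of 213 values recomputed under the alternatives, 199 moved by less than their counting interval or kept within 1.5 times the count, 14 moved further and 0 turned direction. The ratio of each of the 10 genes lay between -1.65 and -0.47 in every setting, and their median between -0.97 and -0.85, also with each gene left out. With 1 CPM added, ATF3 passed above -0.5, which left 9 genes. The counts over all genes depended on the filter. With no filter, 10251 genes were below 0, 2989 at -0.5 or lower and 1719 at -1 or lower. For genes averaging at least 10 CPM, 55 and 5 genes reached -0.5 and -1, and with 1 CPM added 220 and 24. Past a log2 ratio of 1 in size, 81 genes were lower and 28 higher in high glucose (74.3% lower), against 1719 and 1213 with no filter (58.6%), 5 and 4 averaging at least 10 CPM (55.6%), and 24 and 7 with 1 CPM added (77.4%). By the longest transcript, levels in CPM per kb were 157 for ATF4, 39.9 for DDIT3, 2.16 for ATF3, 81.9 for DDIT4, 26.9 for TRIB3, 6.35 for STC2 and 7.38 for PPP1R15A, in the same order as by all exons. No paired analysis was possible because each concentration has 1 library, and for the same reason no library could be left out. Counting intervals do not cover variation between cultures, and ATF3 and CHAC1 rest on the fewest counts.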
